A study of Mus musculus with 8 samples.

Results

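Mouse 2-cell stage genes are held silent in most cells by a set of chromatin repressors and are switched on by a small number of activators. The mRNAs of 10 such regulators were followed here: the repressors Trim28, Setdb1, Morc3, Chaf1a, Chaf1b, Zmym2, Kdm1a and Smchd1, and the activators Dppa2 and Dppa4. They were taken by gene symbol from the table of read counts, so they are 10 of 46078 genes, and all 10 passed the filter on low counts (a level of 0.2 CPM, the count relative to the library's total, reached in 2 or more libraries), as did 19241 genes in all. RNA was sequenced from fully grown germinal vesicle (GV) oocytes of 4-week-old females, collected after priming with gonadotropin, with 100 oocytes in each library. Control oocytes (4 libraries) came from Zp3-Cre mice. CNOT7&8 KO oocytes (4 libraries) came from mice carrying Zp3-Cre with floxed alleles of both Cnot7 and Cnot8, the catalytic subunits of the CCR4-NOT complex, which shortens the poly(A) tails of mRNAs. Zp3-Cre acts in growing oocytes, so both genes were deleted after growth had begun and the ovary's other cells kept them, and control oocytes carried the same transgene. The background was C57BL/6J. The labels do not say whether the libraries came from separate animals or pools, so p-values measure the spread between these libraries, which may be partly technical.

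In mouse embryos and embryonic stem cells, the transcription factor DUX turns on genes of the 2-cell stage, such as the Zscan4 cluster. TRIM28 is recruited to DNA by KRAB zinc finger proteins and brings in the histone H3K9 methyltransferase SETDB1. CHAF1A and CHAF1B are subunits of the chromatin assembly factor CAF-1, which deposits histones behind the replication fork, and KDM1A (LSD1) is a histone demethylase that works with ZMYM2 and CoREST. MORC3 is an ATPase that silences repeats, SMCHD1 is a structural maintenance of chromosomes protein that silences Dux and the inactive X chromosome, and DPPA2 and DPPA4 form a heterodimer that binds the Dux locus and promotes its transcription.

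Loci are given in GRCm38 coordinates from GENCODE release 21, and all 10 are protein-coding. Of these 10 genes, 4 lie on chromosome 16. Dppa4 (ENSMUSG00000058550, chr16:48283733-48294237) and Dppa2 (ENSMUSG00000072419, chr16:48303908-48319723) are next to each other on the plus strand, 9670 bases apart. Morc3 (ENSMUSG00000039456, chr16:93832121-93876073) and Chaf1b (ENSMUSG00000022945, chr16:93883901-93906115) are 7827 bases apart, also on the plus strand. On chromosome 17 lie Chaf1a (ENSMUSG00000002835, chr17:56040439-56072289, plus strand) and Smchd1 (ENSMUSG00000024054, chr17:71344489-71475343, minus strand). The others are Trim28 (ENSMUSG00000005566, chr7:12999114-13031035, plus strand), Setdb1 (ENSMUSG00000015697, chr3:95323525-95357202, minus strand), Zmym2 (ENSMUSG00000021945, chr14:56886653-56962701, plus strand) and Kdm1a (ENSMUSG00000036940, chr4:136550540-136602723, minus strand).

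The 3′UTRs are shown because the CCR4-NOT complex reaches some mRNAs through proteins that bind there: CPEB at the cytoplasmic polyadenylation element (CPE, searched as TTTTAT on the transcript strand) and PUMILIO at its element (PRE, searched as TGTAAATA). In the longest annotated 3′UTR of each gene, 6 of the 10 regulators held a CPE, against 56.2% of 15167 genes with a 3′UTR. These were Zmym2 (6 copies), Morc3 (4), Setdb1 (2), Dppa2 (2), Kdm1a (1) and Smchd1 (1). The 3′UTRs of Trim28 (173 bases), Chaf1a (2726), Chaf1b (323) and Dppa4 (505) held no TTTTAT. A PRE was present in 2 of 10, Zmym2 (2 copies) and Smchd1 (1), against 11.85% of genes, and the AU-rich pentamer ATTTA, which can overlap a CPE, was present in 8 of 10, against 70.3%. The shares among the regulators were thus near those of all genes. For each of the 6 genes, the CPE nearest to the 3′ end is printed below 5′ to 3′, with the element in capitals, from chr3:95323553-95323582, chr16:93876048-93876073, chr14:56962098-56962127, chr4:136550540-136550568, chr17:71345043-71345072 and chr16:48319515-48319544, in that order.
Setdb1 CPE: gacacagtcatgTTTTATttaacctttaat
Morc3 CPE: tgaagttcttgtTTTTATttactcga
Zmym2 CPE: atgatagtttatTTTTATttcttggtgact
Kdm1a CPE: actttaaaataaTTTTATatgaaaattta
Smchd1 CPE: aaaaacagccttTTTTATtgcctttttctg
Dppa2 CPE: tatctggttggtTTTTATatatccaagaca

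The PRE of Smchd1 (chr17:71344962-71344991) and the one of Zmym2 nearest the 3′ end (chr14:56962136-56962165) are shown in the same way, since these were the genes with both elements.
Smchd1 PRE: tagatatttaacTGTAAATAtatgtggaaa
Zmym2 PRE: tagacagcatccTGTAAATAtaactttatt

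Whether these elements go with the direction of change was not tested, since the genes are few. The paper proposes that the CPE acts on translation, which mRNA levels do not measure. Genes with and without these elements were found in both directions. Among the 6 genes with a CPE, Zmym2, Morc3 and Dppa2 were upregulated, Kdm1a and Smchd1 were downregulated and Setdb1 did not pass the test, and the genes without one also moved both ways (Dppa4 up, Chaf1a and Chaf1b down).

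Control libraries held 14943671 to 44092144 counts and CNOT7&8 KO libraries 8639444 to 26784110, and the least counted regulator, Chaf1b, still had 148 to 957 counts in each library, so detection did not limit any of the 10. Levels are given as CPM scaled by edgeR's TMM factors, and every p called adjusted below is from the quasi-likelihood test of edgeR, corrected over all 19241 genes by the Benjamini-Hochberg method. As a check of the labels, Cnot8 mRNA was at 21.0% of control (log2 fold change -2.25, SE 0.12, adjusted p = 8.2e-08) and Cnot7 at 77.1% (-0.38, SE 0.11, adjusted p = 0.0105), and neither overlapped between the groups, although Cnot7 no longer passed with scaling by library size alone (-0.092). The counts cover whole genes, so Cnot7 and Cnot8 transcripts that lack only the deleted exons would still be counted. Oocyte marker mRNAs summed to 21202 to 24549 CPM in control and 17740 to 20499 CPM in KO libraries, with 6 of 12 lower and 1 higher in KO. Markers of granulosa and cumulus cells summed to 86.9 to 116 CPM in control and 134 to 211 CPM in KO libraries, with 7 of 15 tested higher and 1 lower in KO. Named after their values were seen, Ptgs2 rose from 2.94 ± 0.797 to 36.7 ± 5.53 CPM and Kitl from 16.0 ± 3.63 to 43.4 ± 10.3. Inha rose from 6.86 ± 2.31 to 25.9 ± 15.0 CPM with overlap, and was at 4.77 CPM in KO replicate 4. Cyp19a1 fell from 58.5 ± 8.01 to 31.3 ± 6.02, and Foxl2, too low to be tested, was at a mean of 0.029 and 0.027 CPM. Of the blood and stroma markers, 2 of 7 tested were higher and 1 lower in KO, and 4 globin genes were at 0 in every library. Sums were 90.0 to 111 CPM in control and 79.4 to 93.3 CPM in KO libraries. They were mostly Pecam1 (means of 96.2 and 82.2 CPM), which did not pass the test. The higher genes, Ptprc and Cd68, were at means of 0.616 and 3.25 CPM in KO, and the lower one, Col3a1, held 0 to 11 counts per library. The part of these other cells in the values below was not tested.

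Of the 10 regulators, 8 had an adjusted p of at most 0.05 by the quasi-likelihood test. Morc3, Zmym2, Dppa2 and Dppa4 were upregulated (4 of 10, against 31.2% of all genes tested) and Chaf1a, Chaf1b, Kdm1a and Smchd1 were downregulated (4 of 10, against 24.1%). Trim28 and Setdb1 did not pass. Dppa4 alone also passed the 2-fold threshold that defines a DEG here (1 of 10, against 23.8% of genes that were higher DEGs), and 0 of 10 were lower DEGs (against 6.56%). All 4 KO libraries lay above all 4 control libraries for Morc3, Dppa2 and Dppa4 (3 of 10, against 27.0%) and below them for the 4 downregulated genes (4 of 10, against 21.4%). Changes of the regulators were thus mostly smaller than 2-fold in both directions, and the shares called were not far from those of the transcriptome as a whole.

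**Figure D1:**
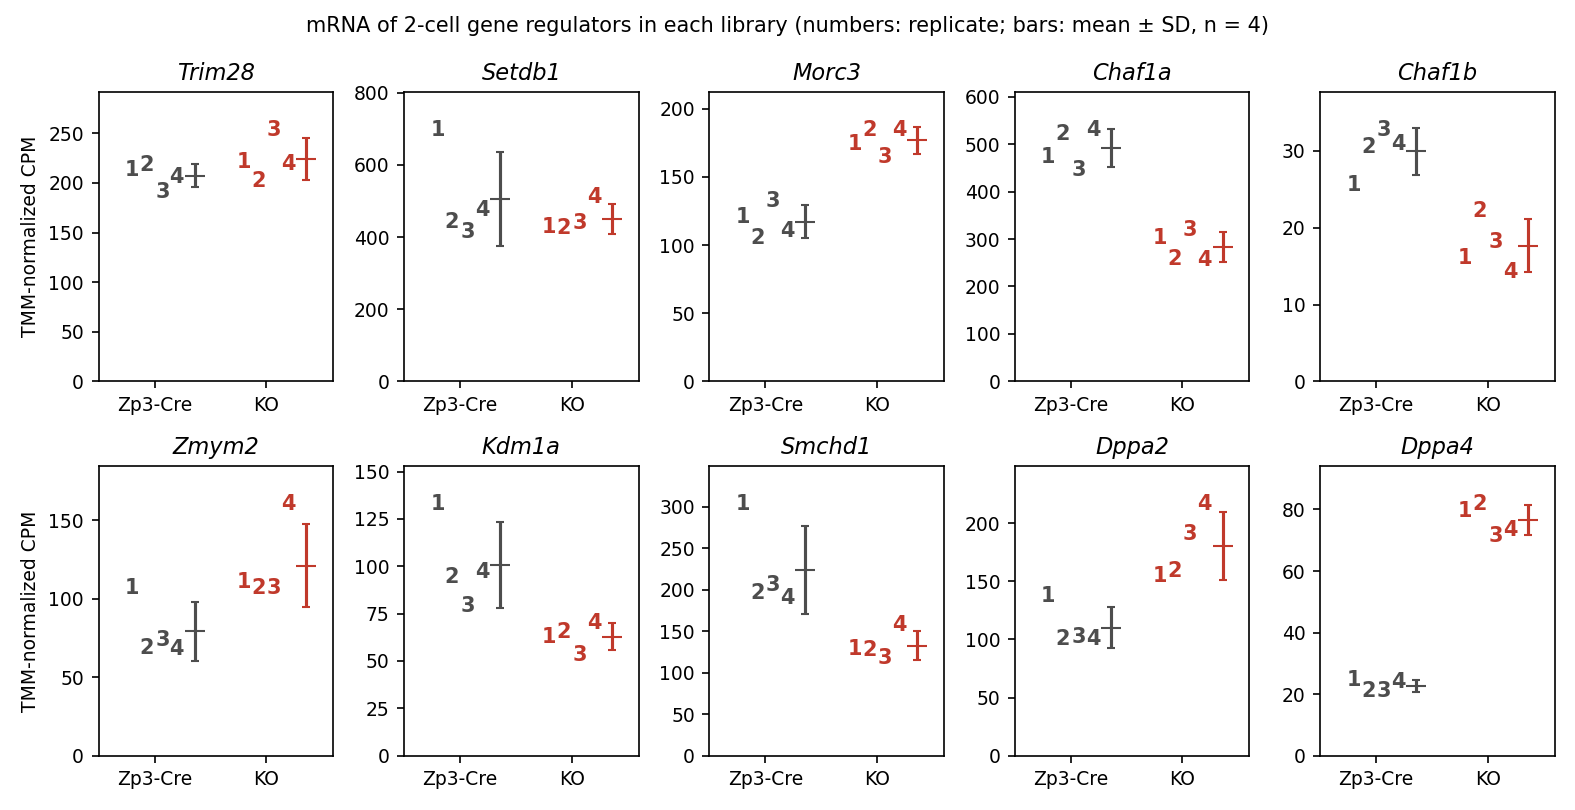
TMM-normalized CPM (y axis, from 0, a separate scale for each gene) of the 10 regulators in the 4 Zp3-Cre and 4 CNOT7&8 KO libraries; digits are replicate numbers, and the bars beside them are the mean ± SD (n = 4). The groups are separate for Morc3, Dppa2 and Dppa4 (KO higher) and for Chaf1a, Chaf1b, Kdm1a and Smchd1 (KO lower), and control replicate 1 is the highest control library for Setdb1, Zmym2, Kdm1a, Smchd1, Dppa2 and Dppa4.

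The activators rose in CNOT7&8 KO oocytes. Dppa4 was at 24.6, 21.1, 21.0 and 23.9 CPM in control replicates 1 to 4 and at 79.4, 81.8, 71.5 and 73.2 CPM in KO replicates 1 to 4. Every KO library was thus more than 2-fold above every control library, with little spread within either group. The mean went from 22.7 ± 1.88 to 76.5 ± 4.91 CPM (SD, n = 4), a 3.37-fold increase (log2 fold change 1.75, SE 0.12, 95% interval 1.50 to 2.01, adjusted p = 3.7e-07 by the quasi-likelihood test). An exact permutation test over the 70 assignments of the 8 libraries, two-sided, gave 0.0286, which is the smallest p this design allows.

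Dppa2, the partner of Dppa4, was at 137, 101, 102 and 101 CPM in control and 154, 159, 191 and 216 CPM in KO libraries. The groups did not overlap, although control replicate 1 came close to the lowest KO library. The mean rose 1.63-fold, from 110 ± 18.0 to 180 ± 29.3 CPM (log2 fold change 0.71, SE 0.14, 95% interval 0.39 to 1.02, adjusted p = 0.00136). Few reads were assigned to processed pseudogenes near-identical to the activators. Gm9788 matched Dppa2 at 99.3% over 906 bases and held 196 counts in all libraries together, against 1381 to 6352 of Dppa2 in each library. Gm14058 matched Dppa4 at 99.4% over 532 bases and held 4, against 309 to 2149 of Dppa4 in each library. How reads that match both a gene and its copy were counted is not given, so these counts cannot show their origin.

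Because Dppa4 rose more than Dppa2, the balance of the pair shifted. Per transcript length, the ratio of Dppa2 to Dppa4 mRNA was 3.37, 2.88, 2.94 and 2.54 in control and 1.17, 1.17, 1.61 and 1.79 in KO libraries. The geometric mean fell from 2.92 to 1.41, a difference of -1.05 in the log2 ratio (exact permutation test, p = 0.0286, two-sided, and 0.0571 adjusted over the 4 ratios tested), with no overlap. A ratio within a library does not depend on how libraries are scaled. Together, the activators made up 7.24%, 6.77%, 7.28% and 6.80% of the summed CPM of the 10 regulators in control libraries and 13.9%, 14.7%, 15.1% and 15.5% in KO libraries.

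CAF-1 mRNAs fell together. Chaf1a, the large subunit, was at 473, 521, 445 and 530 CPM in control and 301, 257, 320 and 256 CPM in KO libraries. All KO libraries were well below the lowest control. The mean went from 492 ± 40.4 to 284 ± 31.9 CPM, 57.6% of control (log2 fold change -0.80, SE 0.11, 95% interval -1.04 to -0.55, adjusted p = 9.0e-05). Chaf1a shares 4648 exon bases with Ubxn6 on the opposite strand, which held 1335 counts in all libraries together, and the strand setting of the counting is not given in the sources used here.

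Chaf1b, the middle subunit, was at 25.6, 30.5, 32.7 and 30.9 CPM in control and 16.1, 22.2, 18.1 and 14.3 CPM in KO libraries. KO replicate 2 came nearest to the control range without reaching it. The mean fell from 29.9 ± 3.06 to 17.7 ± 3.40 CPM, 59.0% of control (log2 fold change -0.76, SE 0.16, 95% interval -1.10 to -0.41, adjusted p = 0.00162). The ratio of Chaf1a to Chaf1b per transcript length was 6.05 in control and 5.95 in KO oocytes, a difference of -0.02 in the log2 ratio (exact permutation test, p = 0.914, two-sided), with SDs of 0.19 and 0.32, so a shift between the subunits was not detected at this spread.

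Kdm1a, the LSD1 demethylase, and its partner Zmym2 moved in opposite directions. Kdm1a was at 133, 94.4, 78.9 and 96.8 CPM in control and 62.9, 65.3, 53.1 and 69.9 CPM in KO libraries. The groups did not overlap, and control replicate 1 stood above the other controls. The mean fell from 101 ± 22.8 to 62.8 ± 7.09 CPM, 62.3% of control (log2 fold change -0.68, SE 0.16, 95% interval -1.02 to -0.34, adjusted p = 0.00301). The span of Luzp1 overlaps Kdm1a on the opposite strand, but the annotated exons of the genes share 0 bases.

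Zmym2, a zinc finger protein that links LSD1 complexes to SUMO-modified chromatin, was at 107, 68.5, 73.5 and 67.9 CPM in control and 111, 107, 107 and 160 CPM in KO libraries. Control replicate 1 lay just above the lowest KO library, so the groups overlapped by this 1 library. The mean rose 1.53-fold, from 79.2 ± 18.8 to 121 ± 26.2 CPM (log2 fold change 0.61, SE 0.18, 95% interval 0.22 to 1.0, adjusted p = 0.0118), whereas the exact permutation test on the CPM gave p = 0.0857. Per transcript length, the ratio of Zmym2 to Kdm1a went from 0.34 to 0.83, a difference of 1.28 in the log2 ratio with no overlap (exact permutation test, p = 0.0286, and 0.0571 adjusted over the 4 ratios; this ratio was chosen after the data were seen).

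Smchd1 was at 303, 196, 206 and 190 CPM in control and 128, 128, 117 and 157 CPM in KO libraries. All KO libraries lay below all controls, and the spread among controls came mainly from replicate 1. The mean fell from 224 ± 53.2 to 133 ± 17.3 CPM, 59.2% of control (log2 fold change -0.76, SE 0.16, 95% interval -1.10 to -0.41, adjusted p = 0.00157).

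Morc3 was the repressor whose rise was seen in every library. It was at 121, 105, 132 and 110 CPM in control and 174, 185, 164 and 184 CPM in KO libraries, so the groups were well apart. The mean rose 1.51-fold, from 117 ± 11.9 to 177 ± 9.69 CPM (log2 fold change 0.59, SE 0.11, 95% interval 0.36 to 0.83, adjusted p = 0.000547). Its neighbour Chaf1b, transcribed from the same strand, moved the other way.

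For the TRIM28 and SETDB1 pair, no change passed the test. Trim28 was at 213, 218, 191 and 206 CPM in control and 222, 202, 254 and 219 CPM in KO libraries. The groups overlapped, with means of 207 ± 11.6 and 224 ± 21.5 CPM (log2 fold change 0.11, SE 0.10, 95% interval -0.11 to 0.34, adjusted p = 0.374). The interval leaves out changes of 2-fold in either direction. Scaling by library size alone moved the median of all genes up by 0.286 on the log2 scale, and Trim28 then passed the test at 0.40 (adjusted p = 0.00540).

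Setdb1 was at 697, 441, 413 and 474 CPM in control and 428, 425, 439 and 512 CPM in KO libraries. Its exons share 75 bases with those of Cers2 on the opposite strand, which held 6408 counts in all libraries together. Except for control replicate 1, the 2 groups covered nearly the same range. The means were 506 ± 130 and 451 ± 41.1 CPM (log2 fold change -0.17, SE 0.16, 95% interval -0.51 to 0.17, adjusted p = 0.380), and the direction turned without control replicate 1 (0.026) and with scaling by library size alone (0.13). The ratio of Trim28 to Setdb1 per transcript length was 0.728 in control and 0.865 in KO oocytes (exact permutation test, p = 0.229, chosen after the data were seen). In all, 16 exact permutation tests were run, on the 10 regulators, Cnot7, Cnot8 and 4 ratios. Besides Dppa4, the other 6 genes without overlap had the same minimum p of 0.0286 on their CPM, Trim28 had 0.229 and Setdb1 0.600.

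**Figure D2:**
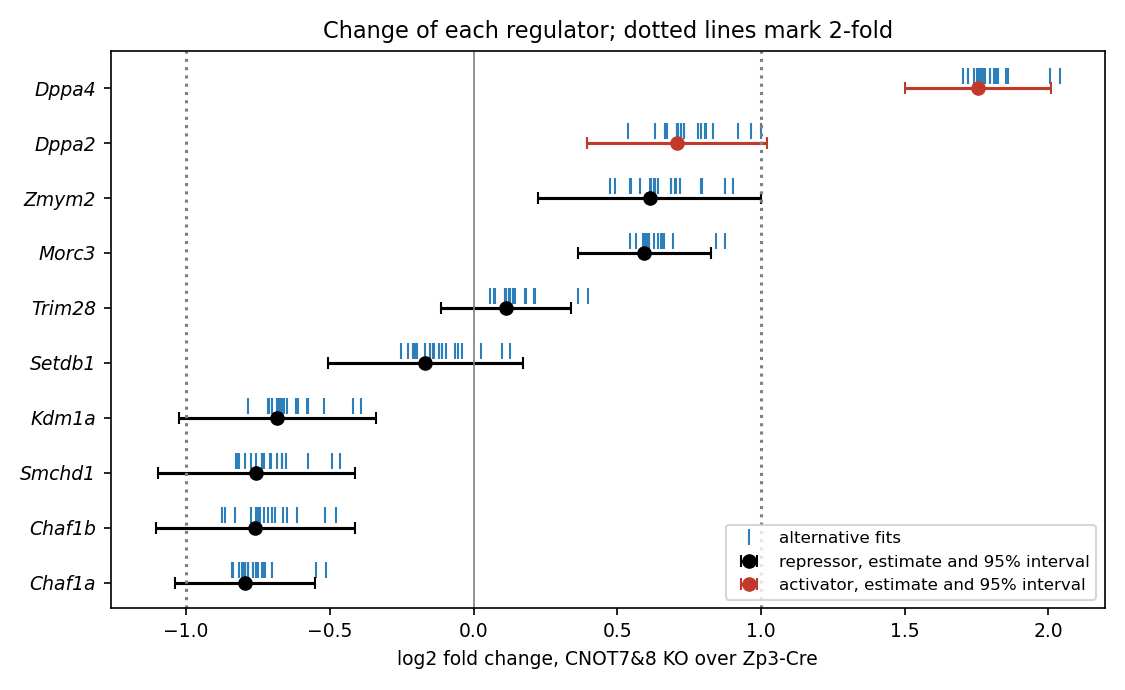
Log2 fold change (x axis, CNOT7&8 KO over Zp3-Cre) of each regulator with its 95% interval from the quasi-likelihood fit; ticks above each point are the values under 20 other settings of the analysis. Dppa4 (1.75) is the one regulator beyond the dotted 2-fold line, and of the ticks those of Setdb1 fall on both sides of 0.

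Across the 20 other settings, 7 of the repressors and both activators kept their direction, and Setdb1 did not. The fold change of Dppa4 ran from 1.70 to 2.04 on the log2 scale, that of Dppa2 from 0.54 to 1.0, that of Morc3 from 0.55 to 0.88 and that of Zmym2 from 0.48 to 0.90. Those of the downregulated genes ran from -0.84 to -0.51 for Chaf1a, from -0.88 to -0.48 for Chaf1b, from -0.78 to -0.39 for Kdm1a and from -0.83 to -0.46 for Smchd1.

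Levels were compared per kb of the longest transcript, and their order depends on the length used. In control oocytes, the order of CPM per kb was Setdb1 (89.6), Chaf1a (63.9), Trim28 (63.8), Dppa2 (45.0), Kdm1a (33.3), Smchd1 (31.7), Morc3 (28.0), Dppa4 (15.3), Zmym2 (11.4) and Chaf1b (10.6). Neighbours in this order overlapped between libraries except Setdb1 and Chaf1a, Trim28 and Dppa2, and Morc3 and Dppa4. In CNOT7&8 KO oocytes it was Setdb1 (79.8), Dppa2 (73.5), Trim28 (69.0), Dppa4 (51.7), Morc3 (42.3), Chaf1a (36.8), Kdm1a (20.7), Smchd1 (18.8), Zmym2 (17.4) and Chaf1b (6.25). Here the ranges of Trim28 and Dppa4, of Dppa4 and Morc3, of Chaf1a and Kdm1a, and of Zmym2 and Chaf1b were separate. By this length, Dppa4 went from 8th to 4th of the 10. The longest transcripts of Setdb1, Chaf1a and Chaf1b are annotated as retained introns, and with the transcript of the longest coding sequence in their place Chaf1a was at 88.9 CPM per kb in control and 51.2 in KO, level with Dppa4, and Chaf1b at 15.6 and 9.19, level with Dppa4 in control. Per kb of all exons joined, Dppa2 (73.5) and not Setdb1 (65.8) was the highest in KO.

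**Figure D3:**
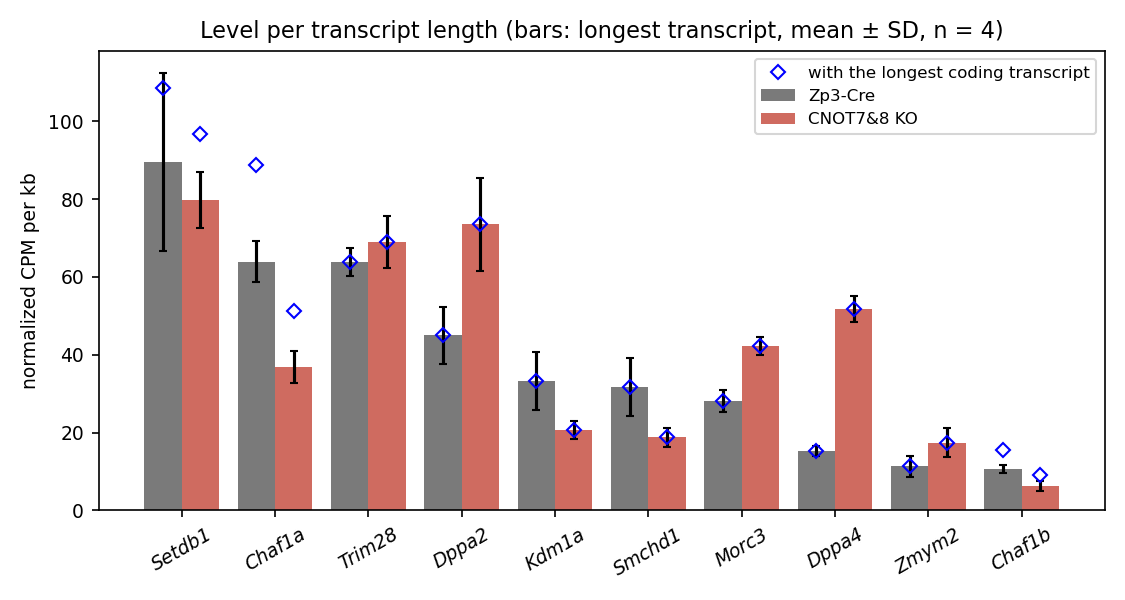
TMM-normalized CPM per kb of the longest transcript (bars from 0, mean ± SD, n = 4) of the 10 regulators in Zp3-Cre and CNOT7&8 KO oocytes, ordered by the control level; open diamonds use the transcript with the longest coding sequence. The bar of Dppa4 goes from 15.3 to 51.7 and that of Chaf1a from 63.9 to 36.8.

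Other genes of the same pathways were counted from lists, beside the 8 repressors (2 higher, 4 lower, median log2 fold change -0.43) and the 2 activators (median 1.23); the median of all genes tested was 0.118. These counts use an adjusted p of at most 0.05, for which the shares of all genes are the 31.2% and 24.1% above. Of 9 other reported repressors of the 2-cell programme, 7 were lower and 0 were higher (median -0.58). In all 7, every KO library lay below every control library, against 21.4% of all genes tested. Dnmt1, the maintenance DNA methyltransferase, fell from 4423 ± 335 to 1920 ± 196 CPM (log2 fold change -1.20), its cofactor Uhrf1 from 895 ± 146 to 410 ± 96.3 (-1.13), the acetyltransferase Kat5 from 52.1 ± 4.98 to 24.2 ± 3.06 (-1.11) and nucleolin, Ncl, from 626 ± 86.8 to 385 ± 12.8 CPM (-0.70).

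Histone chaperones and CAF-1 partners also had lower calls and none higher, with 4 of 10 lower (median -0.35). With scaling by library size alone, 3 were lower and 1 was higher. Cabin1, of the HIRA complex, fell from 130 ± 19.3 to 48.0 ± 7.22 CPM (log2 fold change -1.44). The histone-binding proteins Rbbp4 (-0.77) and Rbbp7 (-0.58), of which RBBP4 is the small CAF-1 subunit, and Pcna (-0.45), the sliding clamp that recruits CAF-1 to replicating DNA, fell by less.

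Among 14 KRAB zinc finger, H3K9 methylation and HP1 partners of TRIM28 and SETDB1, 6 were higher and 1 was lower (median 0.45). The largest increases were in mRNAs that were scarce in control oocytes. The KRAB zinc finger gene Zfp708 went from 0.125 ± 0.112 to 0.885 ± 0.389 CPM (log2 fold change 2.6). Its control libraries held 7, 5, 1 and 0 counts, so the fold rests on few reads, and it passed the filter on low counts through the KO libraries. Larger counts lay behind the next 3 genes. The H3K9 methyltransferase Suv39h1 went from 0.755 ± 0.145 to 4.40 ± 1.09 CPM (2.55) and HP1γ (Cbx3) from 2.6 ± 0.817 to 12.1 ± 1.08 (2.20). The methyltransferase G9a (Ehmt2) went from 2.78 ± 0.447 to 9.59 ± 2.57 CPM (1.79). More abundant genes of the same families did not pass the test. These were Suv39h2 (200 CPM in control, log2 fold change -0.13), Ehmt1 (60.7, -0.094), Cbx1 (126, -0.19) and Cbx5 (79.8, 0.18). In the list of HUSH, MORC family, DAXX and ATRX, which surrounds MORC3, 1 of 8 was higher and none was lower (median 0.093). It was Morc2a (0.63), whose groups overlapped. With scaling by library size alone, 10 genes of the first list and 4 of the second were higher and none lower, and without control replicate 2 or control replicate 3 no gene of the second was higher.

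The CoREST and ZMYM partners of LSD1 moved both ways, as Kdm1a and Zmym2 did. Of 14, 7 were higher and 4 lower (median 0.17), and 7 and 2 with scaling by library size alone. Zmym5, a relative of ZMYM2, rose from 4.29 ± 2.06 to 36.8 ± 10.7 CPM (log2 fold change 3.07). The deacetylase Hdac1 rose from 7.89 ± 1.35 to 22.7 ± 1.99 (1.52) and the corepressor Rcor3 from 7.29 ± 0.707 to 15.7 ± 2.20 CPM (1.11). The CoREST subunit Hmg20b fell from 4.72 ± 1.44 to 1.73 ± 0.467 CPM (-1.43). The deacetylase Hdac2, far more abundant than Hdac1 in control oocytes, fell from 117 ± 19.0 to 59.2 ± 9.44 CPM (-0.98) without overlap.

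Of 12 genes for the SMCHD1 partner and the polycomb complex PRC1.6, 3 were higher and 1 was lower (median 0.18). Lrif1, the SMCHD1 partner, rose (log2 fold change 1.36), as did Ring1 (1.28) and Mga (0.69, with overlap), and Rybp had a log2 fold change of -0.28 (adjusted p = 0.0364). Over the alternatives 3 to 8 genes of this list were higher and 0 to 3 lower. Among 14 SUMO pathway genes, 3 were higher and 6 lower (median -0.13). The ligase Pias3 (2.05) and the activating enzyme subunit Sae1 (1.20) rose, and the protease Senp6 (-1.08) and the ligase Pias4 (-1.03, with overlap) fell. Library size alone left 3 of the 6 lower calls.

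Of 7 other reported promoters of 2-cell transcription, 1 was higher and 2 were lower (median -0.18). The lower genes were the chromatin remodeller Smarca4 (log2 fold change -0.71) and Dppa3 (-0.29), a maternal factor. With scaling by library size alone, 2 were higher and 1 was lower. The higher one was Duxf3, the Dux gene of the table, which was listed at 0.107, 0.148, 0 and 0 CPM in control and at 0.543, 0.439, 0.925 and 0.443 CPM in KO libraries (2.82, adjusted p = 0.00450). Its control values stand for 4, 3, 0 and 0 counts, so its fold change rests on few reads. Duxf3 passed the filter on low counts through the KO libraries, so a lower call was hardly open to it. With the filter of at least 1 CPM in 4 libraries it was not tested. Repeated copies of Dux make their assignment uncertain.

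**Figure D4:**
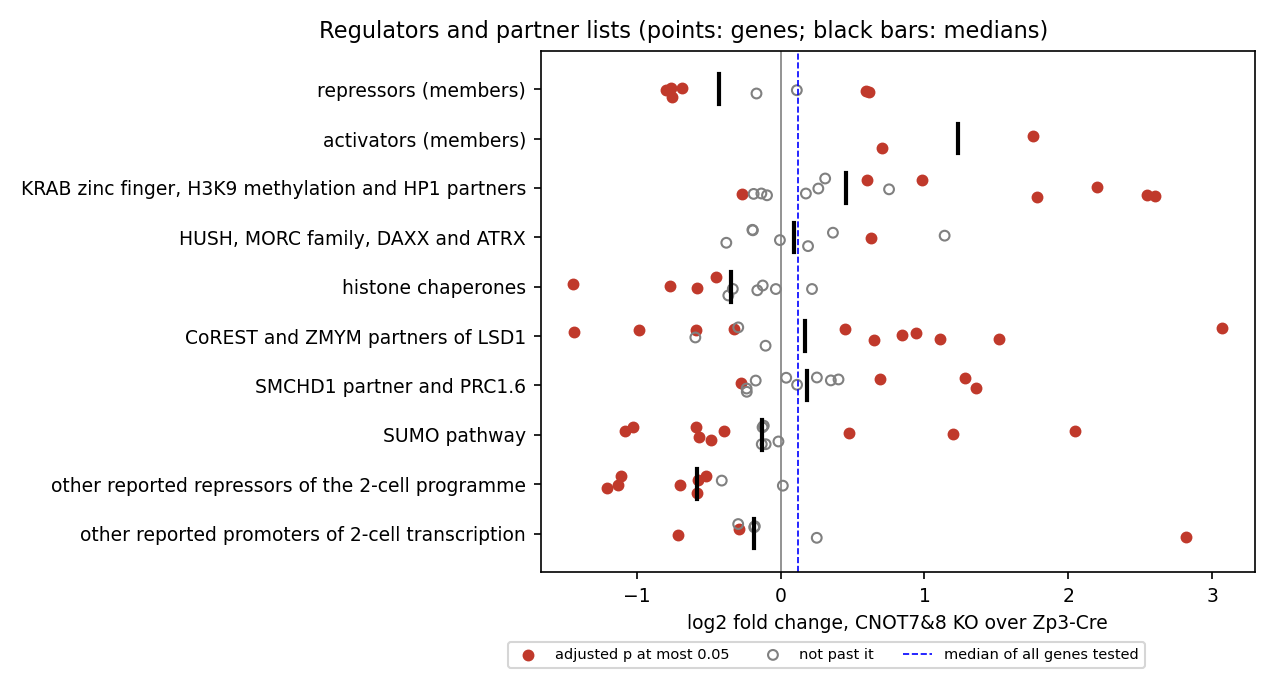
Log2 fold change (x axis, CNOT7&8 KO over Zp3-Cre) of each tested gene in the lists of regulators and partners; filled points have an adjusted p of at most 0.05, black bars are list medians, and the dashed line is the median of all 19241 genes (0.118). Other reported repressors lie mostly left of 0 (median -0.58) and the activators right of it (median 1.23).

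The genes that these factors control are described by a list of 38 2-cell stage genes, of which 34 could be tested. By the quasi-likelihood test, 33 were higher and 1 was lower in CNOT7&8 KO oocytes, and 32 were higher DEGs. With the filter of at least 1 CPM in 4 libraries, which the KO libraries alone can also meet, 17 were higher. Fewer genes of the list were tested with that filter, so this is not 17 of 34. That these genes rise is known from earlier results of the same data, so the count is a description. In control oocytes 20 of the 34 were at or under the floor of 3 counts in every library. These 20 passed the filter on low counts through the KO libraries, so a lower call was hardly open to them. The same held for at least Duxf3 and Gm5662, which were above this floor in a control library. With the 20 set to this bound, the median increase over the list was 31.2-fold. The 4 genes with the largest fitted fold change, Gm2022, Usp17la, Gm4858 and Gm2016, were at 0 in control, where a fitted value is no bound, and were at least 113-fold, 73.2-fold, 64.1-fold and 46.6-fold higher in KO oocytes (against 3 counts per library). The gene that fell was Sp110 (log2 fold change -0.33). Many of these genes belong to families of near-identical copies, and reads may be split between copies.

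Most 2-cell stage genes differed within the KO group. Zscan4d was at 8.21, 6.02, 7.01 and 5.61 CPM in control and at 78.1, 80.6, 263 and 222 CPM in KO libraries, and Zfp352 at 0.027, 0.049, 0 and 0 CPM in control and 0.543, 0.330, 14.4 and 16.2 CPM in KO libraries. Tcstv3 was at 21.5, 15.3, 16.4 and 13.3 CPM and at 71.8, 73.4, 110 and 113 CPM. These 3 genes were chosen after their values were seen, to show the split. In 32 of the 34 genes (94.1%), KO replicates 3 and 4 were both above KO replicates 1 and 2, against 20% of all genes tested. Among the 10 regulators this order was seen in 2, Dppa2 and Setdb1, near the share of all genes. The reverse order was seen in 1, Dppa4, against 17.95% of all genes tested. At these shares, the order of the activators in the KO libraries is only a description. No test was made of the relation between the activators and the 2-cell stage genes. Without KO replicates 3 and 4, Dppa2 had a log2 fold change of 0.54 and Dppa4 of 1.86, and without KO replicates 1 and 2 these were 0.92 and 1.70.

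**Figure D5:**
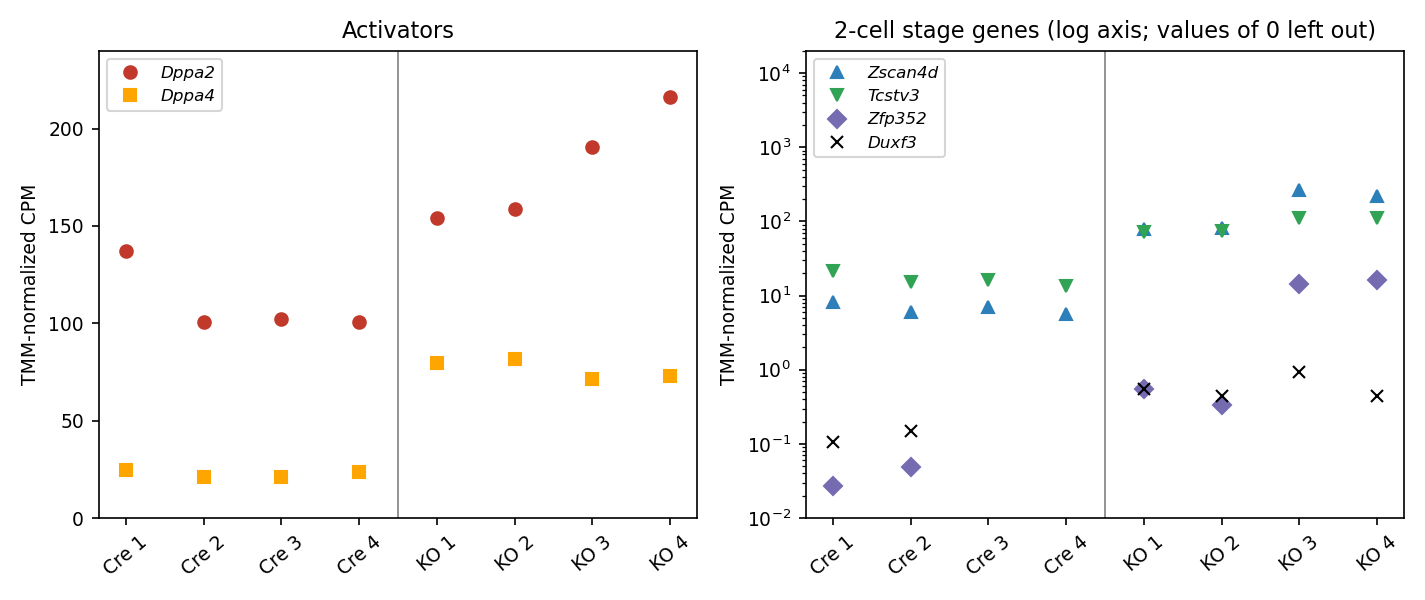
TMM-normalized CPM (y axis) of Dppa2 and Dppa4 (left, linear axis from 0) and of the 2-cell stage genes Zscan4d, Tcstv3, Zfp352 and Duxf3 (right, log axis, values of 0 left out) in each Zp3-Cre (Cre) and CNOT7&8 KO library. Zscan4d, Tcstv3 and Zfp352 are higher in KO replicates 3 and 4 than in 1 and 2, as is Dppa2, whereas Dppa4 is slightly lower there (71.5 and 73.2 against 79.4 and 81.8 CPM).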

How the data were processed

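RNA was measured in 8 libraries of 100 GV oocytes each, 4 Zp3-Cre and 4 CNOT7&8 KO, grouped and numbered by the labels. Ribosomal RNA was depleted; the kit is one for stranded mRNA by the methods and one for stranded total RNA by the labels, so which was used is not settled. The authors mapped 150-bp read pairs to GRCm38 (mm10) with STAR 2.6.1d (pipeline nf-core/rnaseq) and deposited the raw counts of each library, not normalized. The pipeline's counting option, annotation and strand setting are not given in the sources used here. Values are relative to the library, with no spike-in.

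In R 4.3.3, genes of at least 0.2 CPM in 2 libraries, as in the study, were tested with edgeR 4.0.16 (TMM, quasi-likelihood) and p-values were adjusted by the Benjamini-Hochberg method. A DEG is a gene with adjusted p no higher than 0.05 that differed at least 2-fold. Floors of 3 counts correspond to 0.068 to 0.347 CPM, cover counting error only, and reads are not independent molecules after PCR. Single values and ratios were compared with exact permutation tests over 70 assignments. The statistics were tested on simulated data. GENCODE release 21 held 98.2% of the gene IDs and gave loci, lengths and 3′UTRs, and blastn 2.17.0 gave near-identical copies. Figures were drawn with Python 3.11.15 and matplotlib 3.10.9.

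No library pair was a duplicate: the smallest chi-square per degree of freedom between libraries of a group was 7.85. Alternatives tried were DESeq2 1.42.0, the exact test of edgeR, other scalings and filters, the replicate block, leaving out libraries, and another transcript for length. Named were the 10 regulators, Cnot7 and Cnot8, and, in each other list, up to 4 genes past an adjusted p of 0.05 with the largest log2 fold change as fitted by edgeR, and marker genes by counts and sums. The markers named, Sp110, Zscan4d, Zfp352, Tcstv3, Hdac2, Suv39h2, Ehmt1, Cbx1 and Cbx5 were named after their values were seen. The regulators and lists were chosen with earlier results of these data known.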

Additional observations from a re-analysis of the deposited data

Results flagged for a closer look

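Single libraries stood far from the other 3 of their group in 13 of 96 groups of 4 examined, where about 4.8 would be flagged by chance (1 in 20). Control replicate 1 was that library in 7 and KO replicate 4 in 5. Among the regulators, Setdb1 was at 512 CPM in KO replicate 4 against 425 to 439 CPM in the others, and Zmym2 at 107 CPM in control replicate 1 (67.9 to 73.5) and at 160 CPM in KO replicate 4 (107 to 111). Smchd1 was at 303 CPM (190 to 206) and Dppa2 at 137 CPM (101 to 102) in control replicate 1. The ratio of Chaf1a to Chaf1b was 4.26 in KO replicate 2 (6.48 to 6.89). Of the other genes, Cnot7 was at 1049 CPM in control replicate 1 (886 to 900.2). Rbbp7 was at 1796 CPM in control replicate 1 (1366 to 1432) and at 1055 CPM in KO replicate 4 (974 to 980). Pcna was at 165 CPM (197 to 203) and Pias4 at 30.2 CPM (56.9 to 61.8) in control replicate 1. In KO replicate 4, Zmym5 was at 52.8 CPM (30.4 to 32.9) and Mga at 342 CPM (228 to 245). Without both control replicate 1 and KO replicate 4, the regulators past the threshold were the same 8.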

How the results depend on the processing

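Over 20 alternatives, 4 to 5 regulators were higher and 4 lower at an adjusted p of at most 0.05, with 1 and 0 past 2-fold. Setdb1 changed sign with library size alone (0.13), TMM over genes above 10 CPM (0.097) and without control replicate 1 (0.026), but passed in none. Trim28 passed with library size alone (0.40) and TMM over genes above 10 CPM (0.36, adjusted p = 0.00834), the settings that moved the median of all genes by 0.286 and 0.254. Over all genes, lower DEGs numbered 1263, against 587 with library size alone and 628 with TMM over genes above 10 CPM, and genes lower at the adjusted p alone numbered 4631, against 2618 and 2865. Library size alone gave 5643 higher DEGs, against 4582, and the filter of at least 1 CPM in 4 libraries gave 2882, with fewer genes tested. Cnot7 no longer passed with library size alone (-0.092), TMM over genes above 10 CPM (-0.12) and without KO replicates 3 and 4 (-0.25). The log2 difference in the ratio of Chaf1a to Chaf1b ran from -0.12 to 0.14 when 1 library was left out and changed sign without control replicate 1 (0.031) and KO replicate 2. That of Dppa2 to Dppa4 ran from -1.16 to -0.96, and was -1.09 without control replicate 1 and KO replicate 4, where p = 0.100 is the smallest an exact test can give. Same-numbered libraries did not deviate together (r = -0.07, -0.04, 0.11 and -0.12). A replicate block gave 4316 higher and 1254 lower DEGs and changed no call among the regulators. Control replicate 1 deviated together with KO replicate 4 (r = 0.37) and opposite to KO replicate 3 (r = -0.33), which a block by replicate number does not cover. The source of these deviations was not tested. Leaving out KO replicate pairs 1 and 2 or 3 and 4, and the other transcript for length, were chosen after seeing the data. The shallowest library, KO replicate 1, limits low values.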
